A study of Arabidopsis thaliana with 10 samples.

Results

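The regions described here are the H3K27me3 anchors that were joined to themselves. In ChIA-PET, chromatin carrying the mark is enriched after cross-linking, its nearby DNA ends are ligated, and each ligated pair is read as a paired-end tag (PET), and an anchor is a ChIP-seq peak that takes part in a called loop. A loop whose left and right anchor had the same chromosome, start and end was taken as a loop within 1 anchor, and its anchor was called self-joined. The H3K27me3 loop list named 3171 anchors, of which 807 were self-joined and 2364 were not, and each self-joined anchor had exactly 1 such loop. These 807 regions were selected on the called loops themselves, so every PET count within an anchor is given as a description, and no test was run on it.

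The material was shoots of 2-week-old seedlings of the *Arabidopsis thaliana* accession Col-0, with no mutant and no treatment, dual cross-linked with ethylene glycol bis(succinimidyl succinate) and formaldehyde. Antibodies against H3K27me3, H3K4me1, H3K4me3, H3K9me2 and RNA polymerase II (RNAPII) were used, with 2 labelled replicates each (10 samples). The authors pooled the replicates before loops were called, so each antibody has a single list of loops and no spread between replicates could be computed. Whole shoots hold many cell types, and a contact in a few cells and a weak contact in all cells cannot be told apart.

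H3K27me3 is the histone mark laid down by Polycomb repressive complex 2 (PRC2), and in plants it covers developmental genes that are silent in the tissue at hand. In *Arabidopsis* the mark spreads over whole gene bodies and can form broad domains over neighbouring genes. GAGA repeats and the telo-box are short DNA motifs known to recruit PRC2 in *Arabidopsis* through the proteins that bind them.

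Both motifs were looked up in the sequence of the anchors and in the 300 bases before the start of each gene, written as GAGAGAGA and AAACCCTA and counted on either strand. Neither motif contains the other. The windows of 5 genes are shown because they belong to the self-joined anchors with most PETs among the listed developmental and seed genes whose window held a motif, so they were picked for holding it. Of the 46 listed genes at a self-joined anchor, 13 (28.3%, 15.99 to 43.5%) had either motif in the window, and 33 had neither. GAGAGAGA was in 11 (23.9%, 12.6 to 38.8%), against 5.72% of all protein-coding genes with a full window. AAACCCTA was in 3 (6.52%, 1.37 to 17.9%), against 5.21% of all these genes. The lists were written with earlier results of these data known, SESA1 to SESA4 share 1 anchor, and these differences were not tested. The 5 windows shown are read 5′ to 3′ on the strand of the gene from RefSeq TAIR10.1. Motif matches are in capitals, where TCTCTCTC and TAGGGTTT are the same motifs on the opposite strand. LEC2, ABI3, SESA3, WUS and KNAT6 lie in anchors with 366, 77, 55, 93 and 70 PETs. The windows are chr1:9899877-9900176 (minus strand) for LEC2, chr3:8997070-8997369 (plus) for ABI3, chr4:13611496-13611795 (plus) for SESA3, chr2:7810812-7811111 (minus) for WUS and chr1:8302652-8302951 (minus) for KNAT6.
LEC2: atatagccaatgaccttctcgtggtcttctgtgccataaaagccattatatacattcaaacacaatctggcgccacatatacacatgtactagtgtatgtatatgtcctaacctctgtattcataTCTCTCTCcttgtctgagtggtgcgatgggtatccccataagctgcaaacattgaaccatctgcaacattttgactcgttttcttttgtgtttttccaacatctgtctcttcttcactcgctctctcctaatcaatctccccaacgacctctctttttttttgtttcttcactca
ABI3: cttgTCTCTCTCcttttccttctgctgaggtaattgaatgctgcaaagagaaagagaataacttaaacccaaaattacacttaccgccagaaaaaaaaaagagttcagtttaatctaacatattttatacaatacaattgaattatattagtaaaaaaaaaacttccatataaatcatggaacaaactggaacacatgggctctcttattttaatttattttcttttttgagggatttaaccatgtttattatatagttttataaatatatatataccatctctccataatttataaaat
SESA3: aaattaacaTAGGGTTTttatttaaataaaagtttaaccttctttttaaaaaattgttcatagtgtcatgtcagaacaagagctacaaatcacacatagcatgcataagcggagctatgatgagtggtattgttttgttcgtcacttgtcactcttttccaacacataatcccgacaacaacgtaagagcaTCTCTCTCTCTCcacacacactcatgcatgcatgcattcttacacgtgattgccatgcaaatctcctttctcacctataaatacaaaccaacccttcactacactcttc
WUS: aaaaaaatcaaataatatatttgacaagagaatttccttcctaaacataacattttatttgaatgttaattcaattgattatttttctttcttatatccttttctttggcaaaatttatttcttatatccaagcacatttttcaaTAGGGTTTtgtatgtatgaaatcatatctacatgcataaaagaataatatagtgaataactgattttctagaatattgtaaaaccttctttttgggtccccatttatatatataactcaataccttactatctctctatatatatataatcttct
KNAT6: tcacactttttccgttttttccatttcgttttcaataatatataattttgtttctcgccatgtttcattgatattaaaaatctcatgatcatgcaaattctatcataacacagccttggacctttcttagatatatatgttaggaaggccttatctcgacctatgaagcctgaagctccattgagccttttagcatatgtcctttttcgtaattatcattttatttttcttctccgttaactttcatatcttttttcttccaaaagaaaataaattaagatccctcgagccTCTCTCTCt

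GAGAGAGA was present in the windows of 102 of 1545 genes that start in a self-joined anchor (6.60%), of 98 of 1804 genes that start in another anchor (5.43%) and of 1569 of all 27443 protein-coding genes with a full window (5.72%). AAACCCTA was present in 134 of these 1545 windows (8.67%, 95% interval 7.32 to 10.2%), in 151 of the 1804 windows of other anchors (8.37%, 7.13 to 9.75%) and in 1429 of all 27443 windows (5.21%). The telo-box share was thus above that of all genes in both kinds of anchor and alike between them. Over whole anchors, GAGAGAGA occurred 3.50 times per 10 kb of self-joined anchor, 3.18 times per 10 kb of other anchor and 3.29 times per 10 kb of the genome. AAACCCTA occurred 1.99, 1.95 and 1.66 times per 10 kb. Matches were counted at every start position, so a longer GA repeat counts more than once, as the 1 run at SESA3 counts as 3. A match is a run of letters and not a bound site. Intervals here and below are exact Clopper-Pearson intervals for shares and order-statistic intervals for medians, both at the 95% level, and they cover counting error only, since anchors of 1 pooled library are not independent.

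Self-joined anchors were broad H3K27me3 domains. Their width ran from 4020 to 28854 bp with a median of 7097 bp (6916 to 7262), against a median of 2510 bp (2434 to 2573) for the other anchors. Together they covered 6.50 Mb of the 12.7 Mb in H3K27me3 anchors (51.3%), which is 5.45% of the nuclear genome. None of the 1982 anchors narrower than 4 kb was self-joined (up to 0.186% by counting error alone). A PET within an anchor can span no more than the anchor, and no loop between anchors of the same chromosome had a distance under 2324 bp. The absence of narrow anchors therefore cannot be told apart from a limit of the loop calling. Of the anchors of 4 to 5 kb, 73 of 368 were self-joined (19.8%, 15.9 to 24.3%). The share was 163 of 241 at 5 to 6 kb (67.6%, 61.3 to 73.5%) and 283 of 291 at 6 to 8 kb (97.3%, 94.7 to 98.8%). All 118 anchors of 8 to 10 kb were self-joined, as were 170 of the 171 anchors of 10 kb and over. Being self-joined was therefore nearly fixed by width outside the range of 4 to 6 kb, and the 236 self-joined and 373 other anchors within that range are the only sizeable groups in which both kinds can be set side by side.

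**Figure D1:**
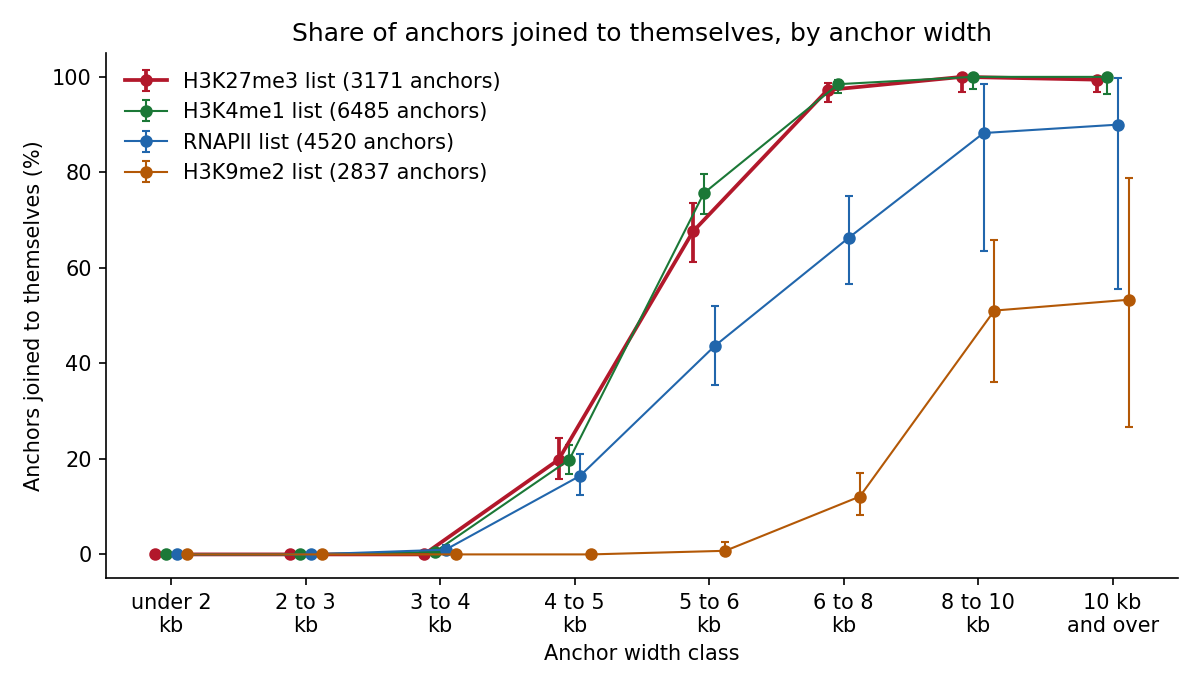
Share of anchors joined to themselves (percent, y axis) in each class of anchor width (x axis) for 4 of the deposited lists, with exact 95% intervals that cover counting error only. The H3K27me3 points climb to 67.6% at 5 to 6 kb and 97.3% at 6 to 8 kb. The H3K4me1 points run beside them, and the H3K9me2 points reach 51.1% only at 8 to 10 kb. H3K4me3, with 3 self-joined anchors, is not drawn.

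The exception among the broad domains was chr4:11681446-11706661, an anchor of 25216 bp with 18427 tags that had no loop within itself in the list. It holds AT4G22050, AT4G22060, WRKY31, RHS14 and AT4G22090, of which WRKY31 is annotated as a WRKY transcription factor gene. It had 18 loops with 455 PETs to other anchors. Self-joined anchors of 10 kb and over had a median of 11 such loops with 166 PETs. The next widest other anchors were chr2:9861678-9868562 with GH3.3, an auxin-conjugating enzyme (6885 bp), and chr3:3538105-3544987 with AT3G11300 and AT3G11310 (6883 bp). The anchor of MEA, a gene for a subunit of PRC2 itself, was 6235 bp wide and also lacked a loop within itself. MEA was named after its values were seen.

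The loops within anchors were few in number and had more PETs at the median than loops between anchors. They made up 807 of the 6310 H3K27me3 loops (12.8%) and 32252 of their 101711 PETs (31.7%). A loop within an anchor had a median of 18 PETs (16 to 19), against 8 for the 4213 loops between anchors of the same chromosome and 8 for the 1290 loops between chromosomes. These kinds of loop were not matched for the width or tags of their anchors. For the 807 self-joined anchors themselves, the strongest loop to another anchor had a median of 25 PETs (22 to 27). The count within the anchor exceeded that loop in 318 of them (39.4%), and all PETs to other anchors together in 84 (10.4%). Of the 100 loops with most PETs, 71 were within an anchor. The lowest PET count in the list was 5 within a chromosome, and 32 self-joined anchors stood at that minimum and 51 more at 6 PETs. PET counts within the other anchors are not in the list, so values just under the minimum cannot be given. The FDR that the authors attached to each loop was under 0.001 for 647 of the 807 loops (80.2%), against 61.0% of loops between anchors of the same chromosome.

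PETs within an anchor followed its width more steeply than in proportion. The median was 7 PETs at 4 to 5 kb, 9 at 5 to 6 kb, 16 at 6 to 8 kb, 33 at 8 to 10 kb and 91 at 10 kb and over. Per kilobase of anchor the medians were 1.44, 1.56, 2.29, 3.88 and 7.49 PETs in the same order. Across the 807 anchors PETs had a Spearman correlation of 0.891 with width, 0.866 with the number of tags in the anchor and 0.625 with the number of loops to other anchors, the last of which was 0.339 among the 283 anchors of 6 to 8 kb. All 4 quantities come from 1 pooled library and grow with anchor size, so these are descriptions. Only anchors with 5 or more PETs were kept, and a wider anchor leaves room for tags further apart. What part of the rise per kb goes with these limits was not tested. Self-joined H3K4me1 anchors had a like correlation of PETs with width, 0.905. The 10 anchors with most PETs held 3948 PETs (12.2% of all PETs within anchors), and 76 anchors held 100 or more. One narrow anchor lay far above the others of its size, namely chr4:9183167-9187746 with AT4G16230, annotated as a GDSL-like lipase. It had 59 PETs over 4580 bp (12.9 per kb) from 2120 tags, where the next highest count among anchors under 5 kb was 15 PETs at AHL19, an AT-hook protein gene. Both were named after their values were seen.

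**Figure D2:**
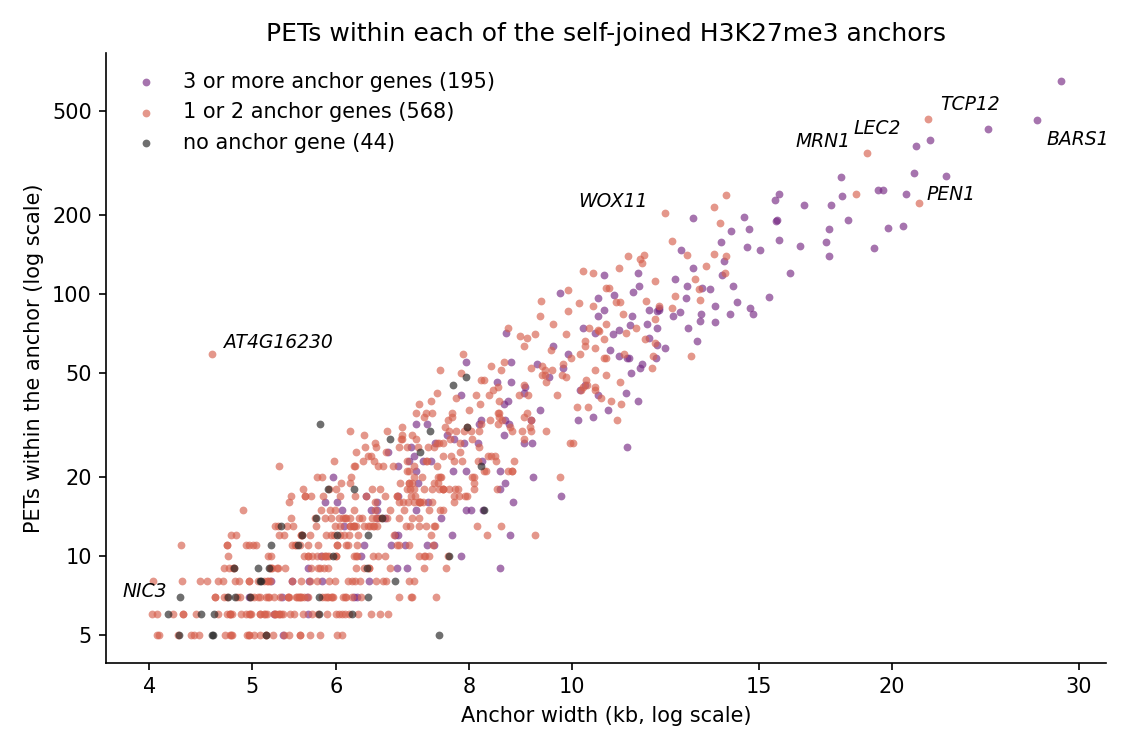
PETs within each self-joined H3K27me3 anchor (y axis, log scale) against anchor width in kb (x axis, log scale), 1 point per anchor (807), coloured by the number of anchor genes. The narrowest anchor, at NIC3, has 6 PETs over 4020 bp and the widest 650 PETs over 28854 bp, and AT4G16230 with 59 PETs at 4580 bp stands above the other narrow anchors.

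The 10 domains with most PETs, all wider than 10 kb, held gene clusters, genes of specialised metabolism or developmental regulators. Of all 170 self-joined anchors of 10 kb and over, 34 (20%) held a gene of the transcription factor families counted below. At least 3 genes with the same annotated product lay in 24 of the 170 (14.1%). The largest count, 650 PETs, was within chr3:7723998-7752851, which at 28854 bp was also the widest H3K27me3 anchor. Its 8 genes, AT3G21940 to AT3G22000, are mostly annotated as receptor kinase-related and cysteine-rich repeat secretory (DUF26) proteins. The second count, 466 PETs over 21644 bp, was within chr1:25842455-25864098, with TCP12, a TCP transcription factor that restrains branch outgrowth, and AT1G68810, a bHLH gene. Its 21.5 PETs per kb were second only to the 22.5 of the DUF26 domain.

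Next came domains of specialised metabolism. The anchor chr4:8769642-8797025 with BARS1 (baruol synthase 1) and its cytochrome P450 neighbours CYP705A3 and CYP705A4 held 461 PETs over 27384 bp. The adjacent anchor chr4:8747064-8768072 with PEN1, a pentacyclic triterpene synthase, CYP705A1 and CYP705A2 held 290 PETs. MRN1, the marneral synthase of another triterpene cluster, lay with AT5G42610 in chr5:17044216-17063155, which held 345 PETs over 18940 bp (18.2 per kb). Further clusters ranked among the 10 highest. A run of thioredoxin-superfamily genes, AT4G15660 to AT4G15700, lay in chr4:8922252-8946894 with 425 PETs. The RALF-like peptide genes RALFL10 to RALFL13 and SHT, a spermidine hydroxycinnamoyl transferase, lay in chr2:8240526-8262261 with 386 PETs. The 11 genes from AT1G23560 to AT1G23670, several with a DUF220 domain, lay in chr1:8353809-8376289 with 281 PETs. The list of 10 was completed by 2 regulators. LEC2, a B3-type regulator of embryo development, lay in chr1:9896508-9917585 with 366 PETs, and AS2, an LBD protein of leaf polarity, lay in chr1:24396627-24414561 with 278 PETs.

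At the other end, the narrowest self-joined anchor was chr5:7818755-7822774 over NIC3 (4020 bp, 6 PETs). It was followed by chr3:1157115-1161144 over AT3G04360 and PDLP4 (4030 bp, 8 PETs), chr4:9459818-9463879 over AT4G16810 (4062 bp, 6 PETs), chr1:3496410-3500476 over AT1G10586 (4067 bp, 5 PETs) and chr2:1686201-1690285 over AT2G04800 and AT2G04810 (4085 bp, 5 PETs). These 5 lay at or within 3 PETs of the minimum. PDLP4 had no loop to any other anchor, and 15 self-joined anchors in all were of that kind, among them those of YUC4, TCP17 and ZFP3.

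Self-joined anchors were better connected to the rest of the genome, but little so at equal width. They had a median of 6 loops to other anchors (6 to 7) with 77 PETs, against 2 loops with 14 PETs for the other anchors. With at least 10 PETs for every loop these medians were 3 and 1 loops, and with an FDR under 0.001 they were 2 and 1. At 4 to 5 kb the medians were 4 loops (3 to 4) with 42 PETs for self-joined and 3 loops (3 to 4) with 34 PETs for other anchors, and at 5 to 6 kb 4 loops (4 to 5) with 46 PETs and 4 loops (3 to 5) with 44.5 PETs, with overlapping intervals in both classes. The share with 5 or more loops was 43.2% (36.8 to 49.8%) of the 236 self-joined anchors and 33.2% (28.5 to 38.3%) of the 373 other anchors of 4 to 6 kb. Within that range the self-joined anchors were still wider, with medians of 5297 and 4523 bp, and had more tags per kb, with medians of 636 (608 to 680) and 585 (548 to 616). The part of width and tags in the remaining difference was not tested.

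**Figure D3:**
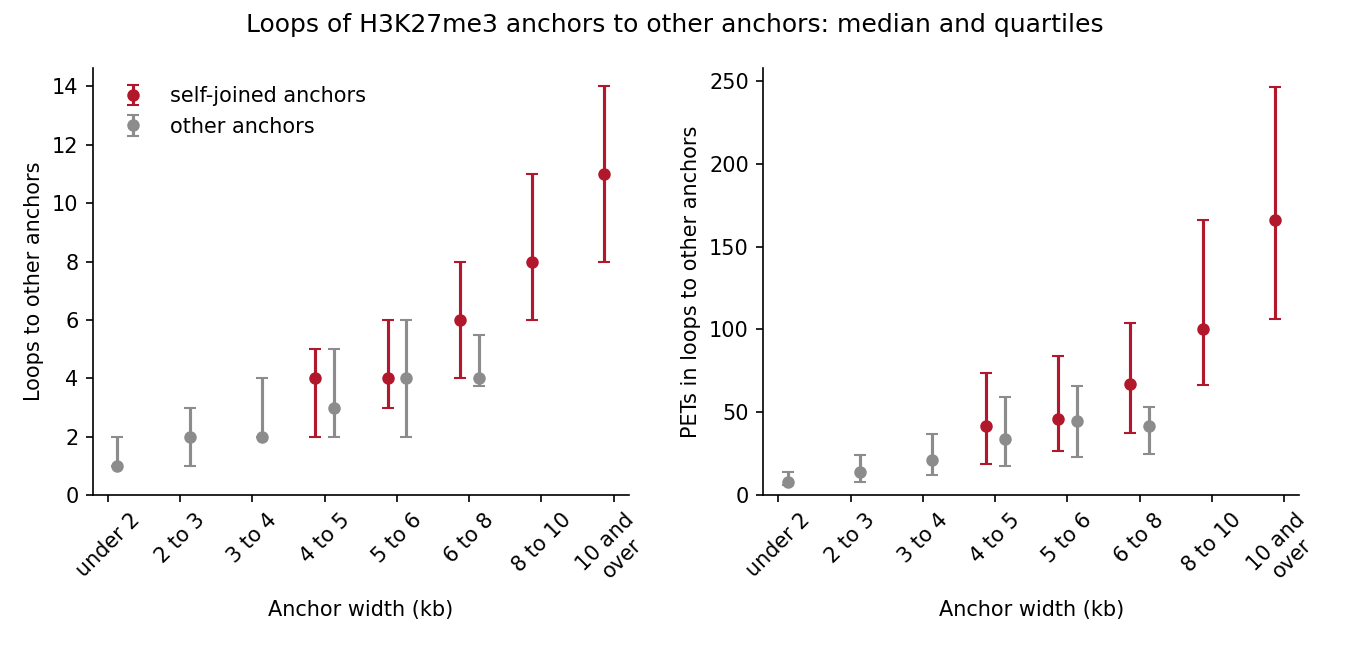
Loops to other anchors (left) and PETs in them (right) of self-joined and other H3K27me3 anchors by width class in kb (x axis). Points are medians and bars run between the quartiles; classes with fewer than 8 anchors of a kind are left out. Between 4 and 6 kb the 2 kinds overlap, with medians of 4 loops against 3 to 4, and self-joined anchors of 10 kb and over reach a median of 11 loops with 166 PETs.

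Most loops between anchors touched a self-joined anchor. Of 5503 such loops, 1268 joined 2 self-joined anchors (23.04%), 3107 joined a self-joined anchor to another anchor (56.5%) and 1128 joined 2 other anchors (20.5%). The loops between 2 self-joined anchors were the longest and most often crossed chromosomes, with a median span of 63.8 kb and 554 loops (43.7%) between chromosomes. Loops with 1 self-joined end had a median span of 30.5 kb and 22.1% between chromosomes. Loops with none had a median span of 9.27 kb and 4.34% between chromosomes. These kinds of loop were not matched for anchor width or tags, and spans run between anchor midpoints. The part of width and tags in these differences was not tested. Of the self-joined anchors, 627 (77.7%) had a loop to another chromosome, against 22.4% of the other anchors. At 4 to 6 kb these shares were 60.2% (53.6 to 66.5%) and 53.9% (48.7 to 59.0%), with overlapping intervals. The anchors with most loops were that of AT4G15650 to AT4G15715 and that of MYB79, with 26 each. Of the 26 loops at MYB79, a MYB transcription factor gene, 13 went to other chromosomes.

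Neighbouring self-joined anchors were joined to each other almost without exception. Of adjacent pairs less than 5 kb apart, all 55 pairs of 2 self-joined anchors had a loop between them (93.5 to 100%). This held for 456 of 478 pairs with 1 self-joined anchor (95.4%, 93.1 to 97.1%) and for 406 of 662 pairs with none (61.3%, 57.5 to 65.1%). The pairs were not matched for width or tags, and self-joined anchors had a median of 5024 tags, against 1189 for other anchors. Gaps were taken between edges, while no loop between anchors of the same chromosome had a distance between midpoints under 2324 bp. The part of width, tags and distance in these shares was not tested. The 15 strongest loops between anchors all joined 2 self-joined anchors, with 158 to 485 PETs. Besides the triterpene clusters they joined the anchor of CLE4 and CLE7 to that of CLE5 and CLE6, genes of small secreted signalling peptides, with 257 PETs across a gap of 365 bp. NST1, a NAC regulator of secondary walls, shared 204 PETs with the GulLO gene cluster next to it. CRU3, a seed storage cruciferin, and NAC074 shared 168 PETs with an anchor that held no protein-coding gene.

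The strongest of all, 485 PETs, joined the anchor of PEN1 to that of BARS1 across 1569 bp, and exceeded the count within either of them (290 and 461). The 2 anchors belonged to a run of 7 H3K27me3 anchors, each less than 10 kb from the next, that spanned 98.5 kb of chromosome 4. Of the 7, 5 were self-joined. All 21 possible pairs of the 7 anchors were joined by a loop, with 1844 PETs in all, beside 889 PETs within anchors. The 10 pairs of self-joined anchors had 19 to 485 PETs and the pairs with ATCSLB05 or CSLB06, the 2 anchors that were not self-joined, had 7 to 81. These 2 anchors were also the narrowest of the run, with 3738 and 4633 bp and 1946 and 1749 tags. The 5 self-joined ones were 8463 to 27384 bp wide and had 6145 to 19411 tags. The part of width and tags in these counts was not tested. The run was chosen after its values were seen, as the surroundings of the strongest loop between anchors.

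**Figure D4:**
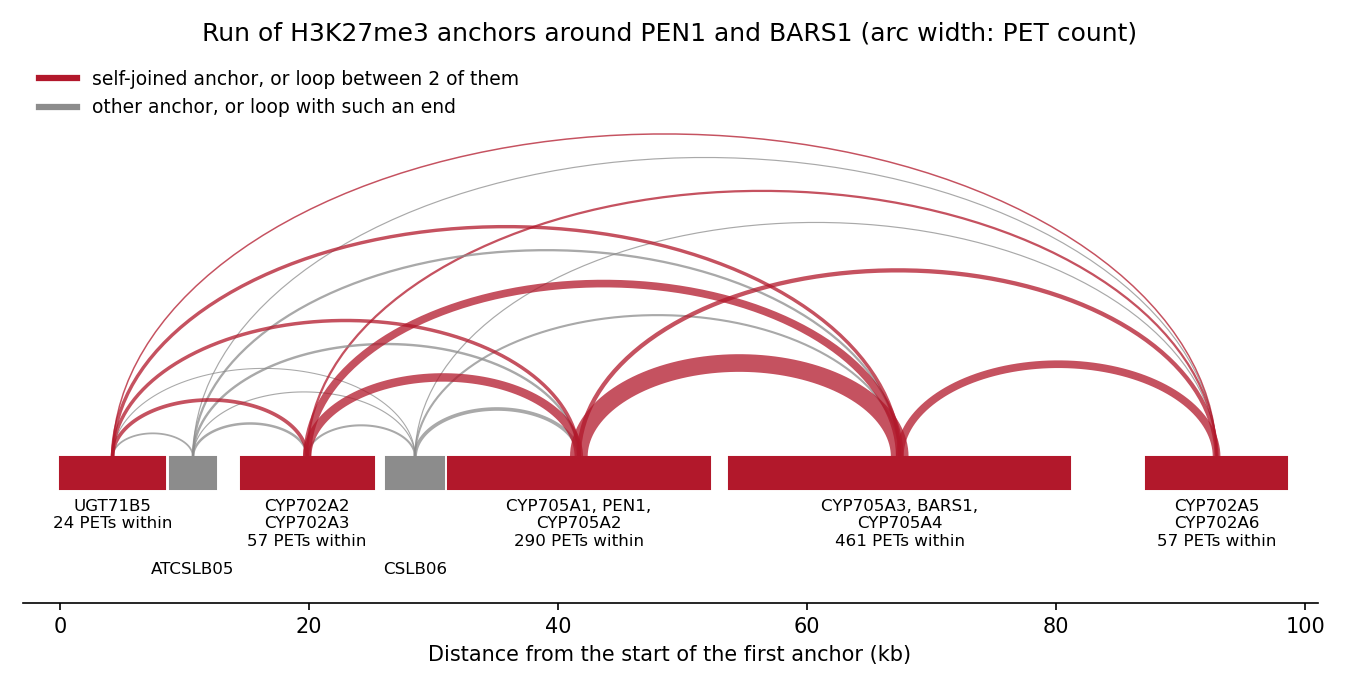
The 7 H3K27me3 anchors around PEN1 and BARS1 on chromosome 4, drawn to scale by distance in kb from the start of the first anchor (x axis); arcs are the 21 loops between them and their line width grows with the PET count. The thickest arc is the loop of 485 PETs from the PEN1 to the BARS1 anchor, and the PETs within each self-joined anchor stand under its box.

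Nearly all self-joined anchors lay over genes, and usually over whole ones. An anchor gene was one for which the anchor covered 0.5 of the stretch from 1 kb before its start to its end, or that stretch covered 0.5 of the anchor. By this rule 763 of the 807 self-joined anchors had a protein-coding gene (94.5%, 92.7 to 96.0%), against 1899 of 2364 other anchors (80.3%). At 4 to 6 kb the order was turned, with 210 of 236 self-joined anchors (88.98%, 84.3 to 92.7%) and 344 of 373 other anchors (92.2%, 89.02 to 94.7%), and the intervals overlap. The self-joined anchors held 1578 protein-coding genes, 5.75% of the 27444 tested, and the other anchors held 2239 (8.16%), so that 1578 of the 3812 H3K27me3 anchor genes were at a self-joined anchor (41.4%). A gene start lay inside 749 self-joined anchors (92.8%), against 62.9% of the other anchors, and a complete gene inside 688 (85.3%), against 39.7%. At 4 to 6 kb the starts were alike, at 86.0% (80.9 to 90.2%) and 88.2% (84.5 to 91.3%), while complete genes lay in 76.7% (70.8 to 81.9%) of self-joined and 66.0% (60.9 to 70.8%) of other anchors. The same anchors were covered by genes over a median of 44.3% (41.2 to 48.7%) of their length when self-joined and 53.7% (49.8 to 58.7%) otherwise. Their GC content was 32.9% (32.5 to 33.3%) in self-joined and 34.3% (33.9 to 34.6%) in other anchors of 4 to 6 kb, against 35.97% in the genome. In the narrower classes the intervals of gene coverage did not overlap at 5 to 6 kb, with 43.1% (37.6 to 47.5%) in self-joined and 53.5% (49.7 to 62.6%) in other anchors, but did at 4 to 5 kb, with 50.6% and 53.8%. GC content behaved alike, with 32.7% (32.3 to 33.3%) and 35.03% (34.3 to 36.04%) at 5 to 6 kb and overlapping values of 33.3% and 34.1% at 4 to 5 kb. For complete genes the intervals overlapped in both classes, with 71.2% and 63.4% at 4 to 5 kb and 79.1% and 75.6% at 5 to 6 kb.

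The 807 regions lay on all 5 chromosomes, with a self-joined share between 23.9% (chromosome 2) and 26.98% (chromosome 5) of the anchors. Their density ran from 5.88 per Mb on chromosome 3 to 7.79 per Mb on chromosome 1. Only 12 (1.49%) lay in pericentromeric windows, against 37 other anchors (1.57%).

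The regions differed in how many genes they held. A single anchor gene lay in 303 of them, 2 genes in 265, 3 or more in 195 and none in 44. The median width was 6250 bp with 1 gene and 10133 bp with 3 or more, with medians of 14 and 48 PETs. Within the class of 6 to 8 kb the number of anchor genes had a Spearman correlation of 0.004 with PETs (283 anchors), against 0.394 over all 807. A gene of the 10 transcription factor families counted here (MADS-box, homeobox, NAC, MYB, WRKY, AP2/ERF, bHLH, LBD, TCP and C2H2 zinc finger, by annotated product) was present in 84 of the 303 single-gene domains (27.7%), in 49 of the 265 with 2 genes (18.5%) and in 23 of the 195 with 3 or more (11.8%). Overall 156 self-joined anchors (19.3%) had such a gene, against 7.66% of the other anchors, and at 4 to 6 kb the shares were 18.2% (13.5 to 23.8%) and 11.8% (8.70 to 15.5%), with intervals that overlap at their ends. By class they were 17.8% (9.84 to 28.5%) and 13.2% (9.57 to 17.6%) at 4 to 5 kb, and 18.4% (12.8 to 25.2%) and 6.41% (2.11 to 14.3%) at 5 to 6 kb. The AP2/ERF family as counted here includes B3-type genes with an AP2/B3-like product, such as LEC2. Self-joined anchors with a transcription factor gene also carried more tags per kb, with medians of 801 against 661 in those without.

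Some of the domains with several genes were clusters of related genes. In 33 self-joined anchors at least 3 anchor genes had the same annotated product, leaving uncharacterized proteins aside, and 24 of the 33 were 10 kb or wider. Their median width was 12650 bp with 93 PETs. Only 3 other anchors were of this kind, with genes of the self-incompatibility protein S1 family (AT1G26797 to AT1G26799), invertase and pectin methylesterase inhibitors (AT3G17140 to AT3G17152) and the PLAC8 family (AT3G18450 to AT3G18470). The self-joined clusters included 6 DUF247 genes from AT3G50130 to AT3G50180 (179 PETs), lipid-transfer genes from AT4G22485 to AT4G22520 (105 PETs), and the AZI1 and EARLI1 genes of the same superfamily (176 PETs), of which AZI1 acts in systemic immunity. Cytidine deaminase genes from AT4G29610 to AT4G29650 had 195 PETs and the lectin genes around MBP1 had 237 PETs. Among anchors of 4 to 6 kb, 2 of 236 self-joined and 1 of 373 other anchors held such a cluster.

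Of the 44 domains without a protein-coding anchor gene, 14 touched a lncRNA gene, 7 a miRNA gene and 5 a pseudogene, and 23 touched none of these. They had 5 to 48 PETs. Over all self-joined anchors 196 (24.3%) touched a lncRNA gene and 33 (4.09%) a miRNA gene, against 9.26% and 1.06% of other anchors. At 4 to 6 kb the lncRNA shares were 16.5% (12.02 to 21.9%) and 14.2% (10.8 to 18.2%), and the miRNA shares 3.39% (1.47 to 6.57%) and 1.88% (0.758 to 3.83%).

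Named genes were then counted in 6 lists, of floral identity, flowering time, meristem and boundary, auxin, seed and embryo, and root. Beside regulators of development, the lists hold seed storage, oleosin and expansin genes and an iron transporter. The base was the 5.75% of all protein-coding genes that were at a self-joined anchor, and photosynthesis genes formed one more list. Of the 96 genes in the 6 lists, 46 (47.9%) were at a self-joined anchor, spread over 43 anchors, and 22 were at another anchor. The lists were written with earlier results of these data known, and since the members were chosen by loops, each count is a description.

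The meristem and boundary list was the most complete group, with 11 of 13 genes at a self-joined anchor (84.6%, 54.6 to 98.1%) and none at another anchor. STM, the KNOX gene that keeps meristem cells undifferentiated, lay in an anchor of 13606 bp with 214 PETs and 18 loops to other anchors. Its relatives KNAT2, KNAT6 and KNAT1 lay in anchors with 41, 70 and 7 PETs. WUS, the stem cell organiser, was in a domain with 93 PETs and CLV3, the peptide that restricts it, in one with 120. CUC2, a boundary gene, had 74 PETs and 18 loops, whereas CUC1 and CUC3 were at no anchor. WOX1, WOX3, WOX5 and LOB had 20, 41, 12 and 15 PETs.

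Seed and embryo regulators and storage proteins followed, with 10 of 15 (66.7%, 38.4 to 88.2%) at a self-joined anchor and 1, OLEO1, at another. LEC2, ABI3 and FUS3, the B3-type master regulators of seed maturation, had 366, 77 and 9 PETs, while LEC1 was at no anchor. BBM, an AP2 gene of embryo development, had 22 PETs. The 4 albumin genes SESA1 to SESA4 shared 1 domain of 7938 bp with 55 PETs. The cruciferin genes CRU3 and CRU2 had 54 and 11 PETs, while CRA1 was at no anchor.

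Of the root list, 8 of 13 genes (61.5%, 31.6 to 86.1%) were at a self-joined anchor and 4 at another. PLT1, PLT2 and PLT3, which pattern the root stem cell niche, had 241, 67 and 17 PETs. WOX11, a homeobox gene of root initiation, had 203 PETs over 12244 bp (16.6 per kb). RHD6, RSL2 and RSL4, bHLH genes of root hair growth, had 152, 33 and 6 PETs, and RSL1 lay in an anchor of 4047 bp that was not self-joined. SHR had 14 PETs. EXPA7, EXPA18 and IRT1 were at other anchors and SCR at none.

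Floral identity genes divided between the 2 kinds, with 7 of 16 (43.8%, 19.8 to 70.1%) at a self-joined anchor and 8 at another. AP1, which specifies sepals and petals, lay in 13801 bp with 158 PETs and 18 loops to other anchors. AG, the stamen and carpel gene, had 70 PETs, STK 59, CAL 34, SUP 29, CRC 24 and SEP3 11. The other anchors held FUL, LFY, PI, SEP1, SEP2, SEP4, SHP1 and SHP2 and were 4922 bp wide or less. AP3 was at none. Thus 15 of the 16 genes were at an H3K27me3 anchor, and the self-joined ones among these anchors were 6013 bp wide or more.

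In the flowering time list 4 of 16 genes (25%, 7.27 to 52.4%) were at a self-joined anchor. FLC, the repressor of flowering that is silenced by cold, lay in an anchor of 7968 bp with 31 PETs. VIN3, which acts in that silencing, shared an anchor of 13043 bp and 114 PETs with a second anchor gene, AIL5, and lay over only a part of it. TFL1 had 14 PETs and AGL24 11. FT, the mobile flowering signal, and SOC1 were at narrower anchors of 2661 and 3094 bp, and the remaining 10 genes, MAF1 to MAF5 among them, were at no anchor. Of the auxin list 6 of 23 (26.1%, 10.2 to 48.4%) were at a self-joined anchor and 7 at another. The self-joined ones, YUC1, YUC2, YUC4, PIN2, PIN5 and PIN8, had only 5 to 14 PETs in anchors of 4613 to 6702 bp. None of the 26 photosynthesis genes, which are strongly expressed in shoots, was at an H3K27me3 anchor of either kind. Counting error alone allows a share of up to 13.2%. Of all 27444 protein-coding genes, 3812 were at an anchor of either kind. The 5.75% at a self-joined anchor lies within the limit of 13.2%.

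**Figure D5:**
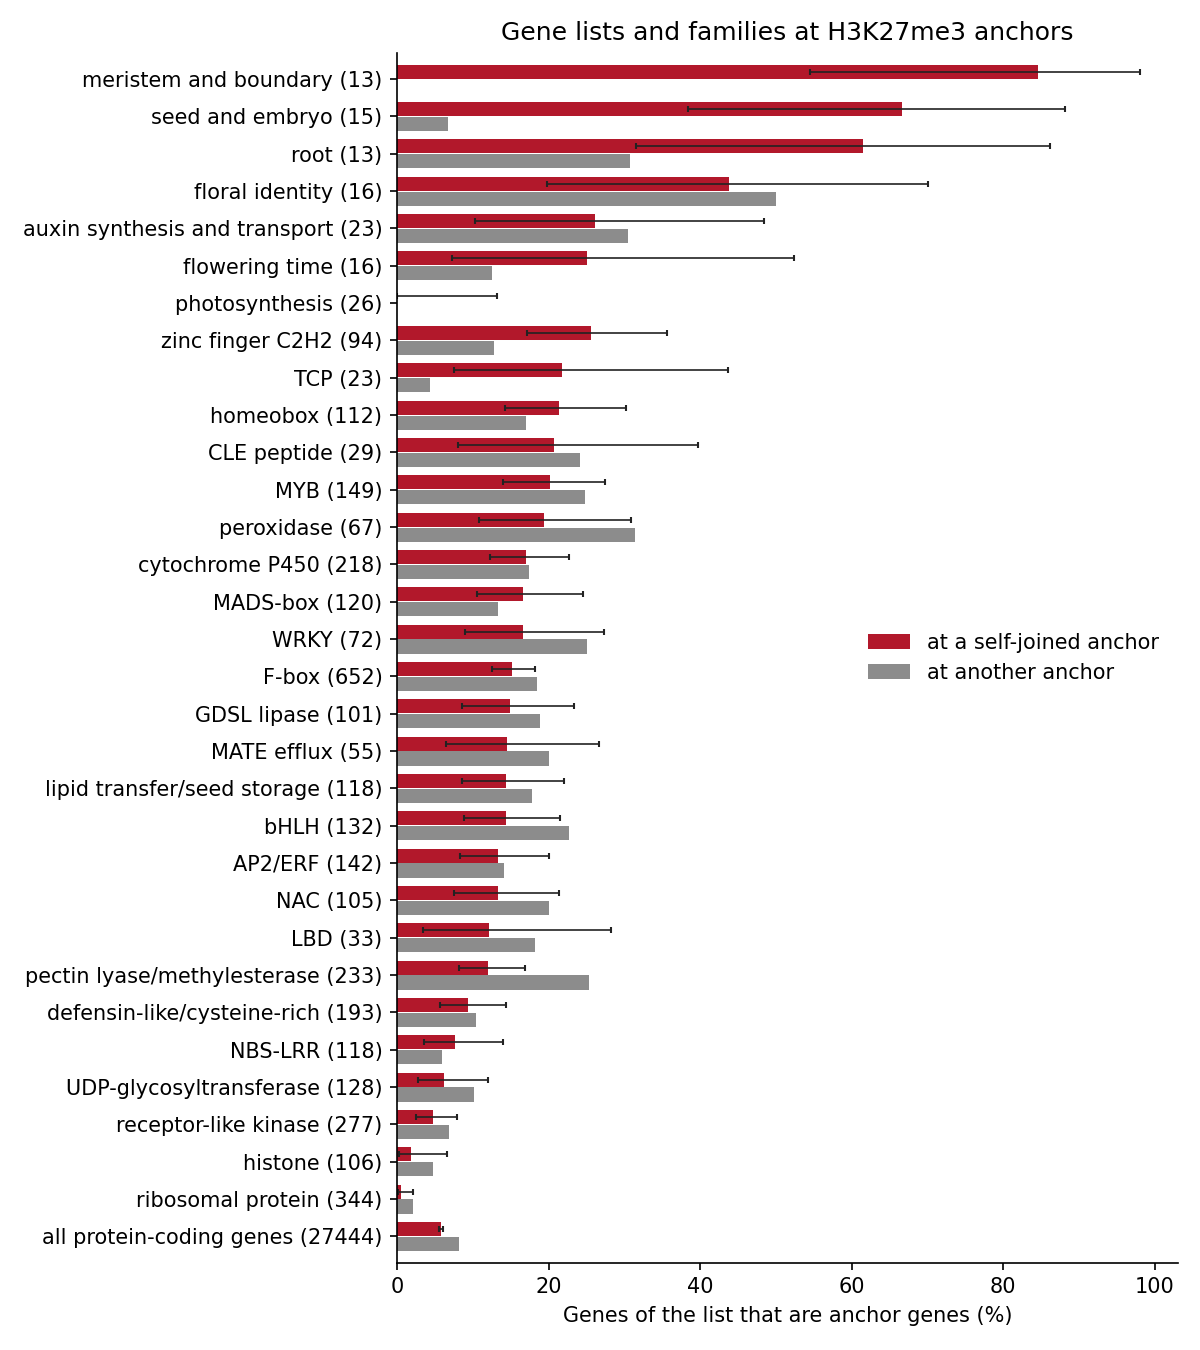
Percent of the genes of each list or family (x axis) that were anchor genes of a self-joined anchor (red, with exact 95% intervals for counting error) and of another H3K27me3 anchor (grey), with the number of genes in the list in parentheses. The meristem and boundary list has the longest red bar (84.6%), photosynthesis has none, and all protein-coding genes stand at 5.75% and 8.16%.

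Gene families taken from the annotated products gave a milder picture. Of the 982 genes in 10 transcription factor families, 171 (17.4%, 15.1 to 19.9%) were at a self-joined anchor and 180 (18.3%) at another, so 48.9% of those at any H3K27me3 anchor were at a self-joined one, against 41.4% of all anchor genes. The C2H2 zinc finger genes had the highest share at self-joined anchors, with 24 of 94 (25.5%, 17.1 to 35.6%) against 12 at other anchors. TCP genes had 5 of 23 at self-joined anchors (TCP1, TCP5, TCP12, TCP17 and BRC1) and 1, TCP15, at another, homeobox genes 24 and 19 of 112, and MADS-box genes 20 and 16 of 120. In the remaining families the self-joined share of the genes at any anchor lay nearer to the 41.4% of all anchor genes. It was 38.8% for bHLH (19 and 30 of 132), 40% for NAC (14 and 21 of 105), 40% for WRKY (12 and 18 of 72), 44.8% for MYB (30 and 37 of 149) and 48.7% for AP2/ERF genes (19 and 20 of 142). It was 40% for LBD genes (4 and 6 of 33), with LBD15, LBD18, LBD25 and LBD31 at self-joined anchors. The LBD family was taken from products written as LOB domain, so AS2 and LOB, whose products are worded otherwise, were not counted in it. The AP2/ERF family took in genes whose product is written as AP2/B3-like, so B3-type genes such as LEC2 were counted in it and in the 10 families together. Among enzymes and wall proteins, cytochrome P450 genes had 37 and 38 of 218, and pectin lyase and methylesterase genes had 28 (12.02%, 8.14 to 16.9%) and 59 (25.3%) of 233, a self-joined share of 49.3% and 32.2% of those at any anchor. F-box genes, the largest family listed, had 99 of 652 at self-joined anchors (15.2%) in 57 anchors. Ribosomal protein genes had 2 of 344 (0.581%), AT4G16030 and AT5G19720. Genes with histone in their product name, histone enzymes included, had 2 of 106, MGH3 and HIS1-3.

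Self-joined H3K27me3 anchors rarely met the anchors of the other lists. By at least 1 bp, 44 of them (5.45%) overlapped an H3K4me1 anchor, 45 (5.58%) an RNAPII anchor, 24 (2.97%) an H3K4me3 anchor and 5 (0.620%) an H3K9me2 anchor. The shares of the other H3K27me3 anchors were 5.50%, 5.50%, 3.00% and 0.296%. When the overlap had to reach 0.5 of the smaller anchor, the RNAPII share was 2.85% of self-joined and 3.38% of other anchors, and the H3K9me2 share 0% (up to 0.456%) and 0.0423%. Any of the 3 active lists was met by 20 of the 236 self-joined anchors of 4 to 6 kb (8.47%, 5.25 to 12.8%) and by 63 of the 373 other anchors of that range (16.9%, 13.2 to 21.1%). The intervals of these 2 shares do not overlap, and the difference was not tested. They overlap within each class, with 5.48% (1.51 to 13.4%) and 16.6% (12.55 to 21.4%) at 4 to 5 kb and 9.82% (5.71 to 15.4%) and 17.9% (10.2 to 28.3%) at 5 to 6 kb. Over all widths the shares were 13.01% and 12.3%.

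Loops within an anchor were not particular to H3K27me3, but what they covered differed. The H3K4me1 list had 1094 self-joined anchors of 6485 (16.9%), the RNAPII list 220 (4.87%), the H3K9me2 list 62 (2.19%) and the H3K4me3 list 3 (0.0312%), against 25.4% (23.9 to 27%) in the H3K27me3 list. In the H3K4me1 list the share by width ran close to that of H3K27me3, with 19.8% at 4 to 5 kb, 75.6% at 5 to 6 kb and 98.5% at 6 to 8 kb. Only 12.1% of H3K9me2 anchors of 6 to 8 kb and 66.4% of RNAPII anchors of that width were self-joined. The lists differ in depth and in the lowest PET count kept (5 for H3K27me3, 6 for H3K4me1, 4 for RNAPII and 5 for H3K9me2 within a chromosome), so these shares are set side by side only. Self-joined H3K27me3 anchors held genes with a median length of 1676 bp, of which a start lay inside 92.8% of anchors. Self-joined H3K4me1 anchors held genes of 5581 bp, with a start inside 17.7% of anchors and a complete gene inside 12.4%, while the median over all protein-coding genes was 2078 bp. The H3K27me3 domains thus tended to enclose short genes and the H3K4me1 ones to lie within long genes. Of the 807 H3K27me3 regions, 4 overlapped a self-joined H3K4me1 anchor, namely those of AT1G50980 and BSK11, of AT1G54540 and AT1G54550, of AT2G18810 and of BAT1, which were named after their values were seen.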

How the data were processed

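ChIA-PET libraries of Col-0 shoots (5 antibodies, 2 labelled replicates each) had been processed by the authors with ChIA-PET Tool V3 on TAIR10, with ChIP-seq peaks as given anchors. Linkers were filtered and redundant pairs removed in that tool, whose mapping settings are not given in the sources used here. For the peaks, reads had been trimmed with fastp, mapped with BWA-mem and filtered for duplicates and low mapping quality before MACS2 was run. The authors pooled replicates and kept loops with an FDR under 0.05 and a minimum number of PETs. The deposited PET counts and tag counts are whole numbers with no normalization. The deposited FDR, an adjusted p-value of each loop, was computed by the authors and served here as a filter and for counts of loops under 0.001. Spans are the deposited distances between anchor midpoints. The flag for chromosomes, the unadjusted p and the log columns were not used.

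A loop with equal coordinates at both ends marked a self-joined anchor. Genes came from the RefSeq annotation of TAIR10.1, whose nuclear chromosomes have the lengths of TAIR10. Shares have exact Clopper-Pearson and medians order-statistic 95% intervals. No test was run, since pooled lists hold no replicates, and no value measures the spread between samples. The members, lists and families were chosen with earlier results of these data known. Genes were named if they lay at the 10 self-joined anchors with most PETs, the 5 with most PETs per kb, the 5 widest, the 5 narrowest, the 5 with most loops, or the 3 widest other anchors, or belonged to the fixed lists; others are said to be chosen after their values were seen, as are those named as examples of clusters, families and strong loops. The pericentromere was the run of 500 kb windows around the 1 Mb window poorest in genes in which genes were less than 0.5 times as dense as over the chromosome. The functions were checked on simulated anchors. Python 3.11.15, pandas 2.3.3, numpy 2.4.6 and SciPy 1.17.1 were used.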

Additional observations from a re-analysis of the deposited data

How the results depend on the processing

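No paired analysis was possible because the lists pool the replicates and hold no columns per replicate; leaving out a replicate was not possible for the same reason. The cause of each shift below was not tested beyond the setting itself. With at least 10 PETs for every loop, the median width was 7862 bp for self-joined and 3195 bp for other anchors, the self-joined share was 32.8%, the median number of loops to others was 3 for self-joined and 1 for other anchors, and 96.5% of them had a protein-coding anchor gene. With an FDR under 0.001 the median width of self-joined anchors was 7655 bp, their share 23.8% and the median number of loops 2 for self-joined and 1 for other anchors. These settings were tried for the loops of other anchors after seeing the data. Among anchors of 4 to 6 kb alone, self-joined and other anchors both had a median of 4 loops to others, against 6 and 2 over all widths. When an overlap with another list had to reach 0.5 of the smaller anchor, the share of self-joined anchors was 2.85% for RNAPII and 0% for H3K9me2, and that of other anchors 4.02% for H3K4me1, 3.38% for RNAPII and 0.0423% for H3K9me2. With a common minimum of 6 PETs, 3.67% of RNAPII anchors were self-joined. Under the 2 other gene rules, 61 of 62 list counts stayed within 1.5 times the reported count, and ribosomal protein genes moved to 4 when 1 bp of the gene body sufficed. At this depth 32 self-joined anchors had 5 PETs, the minimum, and 51 had 6, and loops with fewer PETs were not in the list.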
